A study of Mus musculus with 8 samples.

Results

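Cxcl14 and Cxcl12 encode CXC chemokines, small secreted proteins that steer cell migration. They were chosen by name, with their levels in these data known, and are 2 of 5828 genes in the 4 deposited comparisons of the mouse uterus. CXCL12 signals through the receptor CXCR4, is scavenged by ACKR3, and is a product of stromal and vascular cells in many tissues. CXCL14 is made by many epithelia and fibroblasts at rest, attracts monocytes, dendritic cell precursors and natural killer cells, and has no settled receptor, although interaction with CXCR4 has been described. Both bind the heparan sulfate chains of cell surface and matrix proteoglycans.

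The samples were uteri of 8 females on a mixed C57BL/6 and 129SvEv background. The 4 Ezh2cKO females (KO below) had the genotype EZ fl/fl; Prcre/+, in which Cre at the progesterone receptor locus deletes floxed Ezh2 in the cells that use that locus, in the uterus epithelium, stroma and muscle. The 4 females labelled WT had the genotype EZ fl/fl, so the floxed alleles were present in both groups. Every female was ovariectomized at postnatal day 71 ± 4 and its uterus was taken at day 112 ± 11. Litters each gave a KO and a WT female. Ezh2 encodes the Polycomb enzyme that places the repressive histone mark H3K27me3. Transcripts were captured on Visium slides, where every barcoded spot covers a patch of tissue and can take in RNA of several cells.

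The deposited tables compare KO and WT spots named epithelium or stroma, giving 4 pools, each over the animals of a genotype. There is 1 value per gene and pool and no spread between animals, so differences below carry counting error only. Adjusted p-values are the authors' own, from a test whose unit (spot or animal) is not known here. A level is a pool's UMI sum (unique molecules of a gene) divided by the pool's summed size factors, on the scale of the table for WT epithelium and WT stroma. The tables were scaled separately, and the pool sizes behind this shared scale agreed over the 4 tables within 1.17e-08 on the natural log scale. Over the 1755 genes with a value in every pool, the epithelium pools held 1179762 (KO) and 1060002 (WT) UMIs and the stroma pools 849467 (KO) and 414705 (WT). WT stroma was thus the shallowest pool and gives the widest interval for a gene at a given level. The summed level of 14 markers of simple uterine epithelium was 3.16-fold as high in epithelium as in stroma spots in KO and 8.06-fold as high in WT, so epithelial transcripts were also present in spots named stroma. Fewer cells of a type and less RNA per cell cannot be told apart in such pools. Ezh2 was not among the genes analysed here.

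On GRCm38, Cxcl14 spans positions 56288643 to 56296551 of chromosome 13 (minus strand), and Cxcl12 spans 117168535 to 117181367 of chromosome 6 (plus strand). The annotation gives Cxcl14 2 and Cxcl12 3 protein-coding transcripts, and the deposited values sum over them. Their promoters are shown because the Ezh2 complex is known to occupy CpG-dense promoters, and Ezh2 is the gene deleted here. Neither the mark nor the binding of the complex was measured. The windows hold the 250 bases before each RefSeq start on GRCm38.p6, written 5′ to 3′ on the strand of the gene, with CpG pairs in capitals. They are chr13:56296552-56296801 (minus strand) for Cxcl14 and chr6:117168285-117168534 (plus strand) for Cxcl12.
Cxcl14: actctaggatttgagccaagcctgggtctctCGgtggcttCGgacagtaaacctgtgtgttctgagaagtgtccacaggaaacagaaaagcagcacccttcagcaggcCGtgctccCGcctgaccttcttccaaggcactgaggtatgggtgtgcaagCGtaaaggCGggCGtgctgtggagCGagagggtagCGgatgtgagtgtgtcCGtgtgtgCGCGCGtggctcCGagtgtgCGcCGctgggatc
Cxcl12: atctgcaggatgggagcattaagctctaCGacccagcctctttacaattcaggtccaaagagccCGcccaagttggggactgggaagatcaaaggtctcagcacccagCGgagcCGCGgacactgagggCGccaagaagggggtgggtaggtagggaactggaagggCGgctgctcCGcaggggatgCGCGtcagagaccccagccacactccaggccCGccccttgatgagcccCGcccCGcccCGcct
The Cxcl14 window held 16 CpG pairs and the Cxcl12 window 14, with GC contents of 59.6% and 64.4%. Of 32841 promoter windows of this length, 25.4% held at least 16 CG pairs and 29.4% at least 14, and the median window held 6. CG reads the same on both strands, so 1 count covers both. Both windows thus had more CpG pairs than the median. A link between CpG pairs and the levels given below was not tested.

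Cxcl14 was highest in KO epithelium and lowest in WT stroma, and it stood above WT in KO spots of each compartment. It had 1559 UMIs in KO epithelium and 528 in WT epithelium, a level of 8.12 (95% exact Poisson interval 7.72 to 8.53) against 2.98 (2.73 to 3.24). In stroma it had 794 UMIs in KO and 66 in WT, a level of 5.66 (5.27 to 6.07) against 0.95 (0.73 to 1.20). From high to low the order was KO epithelium, KO stroma, WT epithelium and WT stroma, and no neighbouring intervals overlapped. KO stroma thus carried more Cxcl14 than the epithelium of WT uteri.

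Cxcl12 had nearly the opposite order. It was highest in WT stroma, with 609 UMIs in the KO stroma pool and 682 in the shallower WT stroma pool, a level of 4.34 (4.00 to 4.70) against 9.78 (9.06 to 10.5). In epithelium it was low in both genotypes, with 194 UMIs in KO and 219 in WT, a level of 1.01 (0.87 to 1.16) against 1.24 (1.08 to 1.41). The order from high to low was WT stroma, KO stroma, WT epithelium and KO epithelium. The intervals of the epithelium pools overlapped each other, and those of the other neighbours did not.

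**Figure D1:**
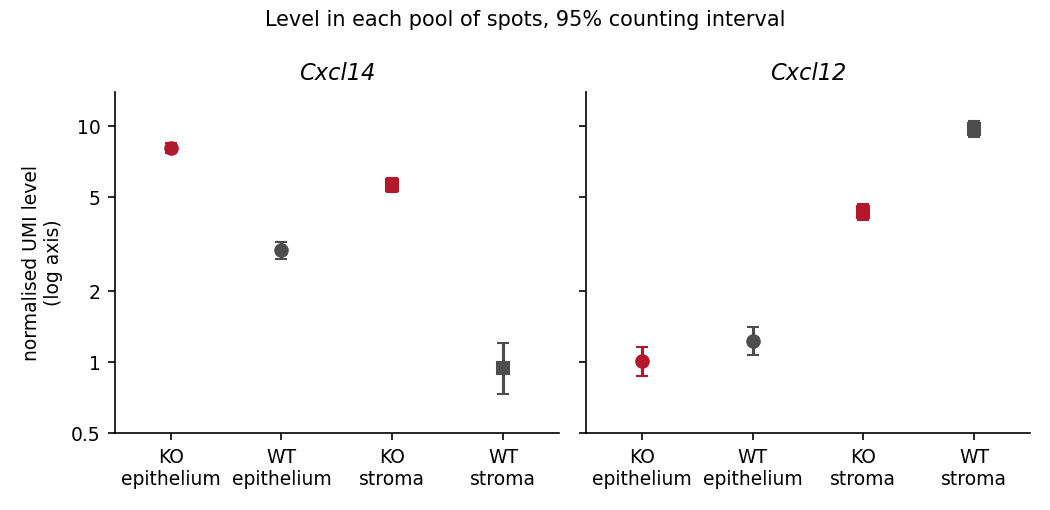
Level of Cxcl14 (left) and Cxcl12 (right) in each pool of spots, as UMIs divided by summed size factors on a log axis. Points are pooled values and bars are 95% exact Poisson intervals of the UMI sums (counting error only). Red marks KO and grey WT. Cxcl14 runs between 8.12 in KO epithelium and 0.95 in WT stroma, and Cxcl12 between 1.01 in KO epithelium and 9.78 in WT stroma.

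Between genotypes, Cxcl14 rose in both compartments and Cxcl12 fell in stroma. These contrasts entered the choice of the genes and are given as a description. In epithelium Cxcl14 was 2.72-fold higher in KO than in WT (95% counting interval 2.47 to 3.01), the fold ranked 12 of 5811 from the top (adjusted p = 0.0102 per the authors' deposited table). That table calls 0.12% of its genes at an adjusted p under 0.05, 0.0688% higher and 0.0516% lower in KO. In stroma the Cxcl14 fold was 5.98 (4.65 to 7.81), rank 3 of 1191 from the top, and its adjusted p of 2.94e-05 was the lowest in the authors' deposited table, which calls 1.51% of its genes, 0.756% higher and 0.756% lower in KO. The average of Cxcl14 in WT stroma on the scale of that table was 0.779, below the level of about 1 that listed genes reach in at least 1 pool, so its listing there rests on the KO pool.

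Cxcl12 was 2.25-fold lower in KO stroma than in WT stroma (2.02 to 2.52), rank 15 of 1191 from the lowest fold (adjusted p = 0.0125 per the authors' deposited table). In epithelium its KO to WT ratio was 0.82 (0.67 to 0.996), and the authors' deposited table gives an adjusted p of 1. The median gene had a log2 KO to WT ratio of -0.10 in epithelium and -0.05 in stroma, against which the Cxcl12 values of -0.29 and -1.17 can be read.

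The genotype ratios differed between compartments for each gene in the direction of a larger shift in stroma. The Cxcl14 ratio in stroma was 2.19 times its ratio in epithelium (95% exact conditional interval 1.67 to 2.92). For Cxcl12 the ratio in stroma was 0.54 times that in epithelium (0.43 to 0.68). Among the 1755 genes with a value in every pool, 75 (4.27%) had a larger value of this quotient than Cxcl14, and 30 (1.71%) had a smaller one than Cxcl12. The median log2 quotient over these genes was 0.02, with quartiles of -0.23 and 0.29. The 14 epithelial markers, summed, also had a larger KO to WT ratio in stroma (2.18) than in epithelium (0.85). Divided by the UMIs of these markers, the Cxcl14 ratio was 2.75 in stroma and 3.19 in epithelium. On that scale the Cxcl14 shift was thus not larger in stroma. Divided by the UMIs of 21 markers of endometrial stroma, the Cxcl14 ratio was 6.87 in stroma and 2.06 in epithelium. Which compartment had the larger shift thus depended on the markers, and these divided ratios carry no interval. The intervals cover counting error alone, and whether the genotype effect differs between compartments over animals was not tested.

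**Figure D2:**
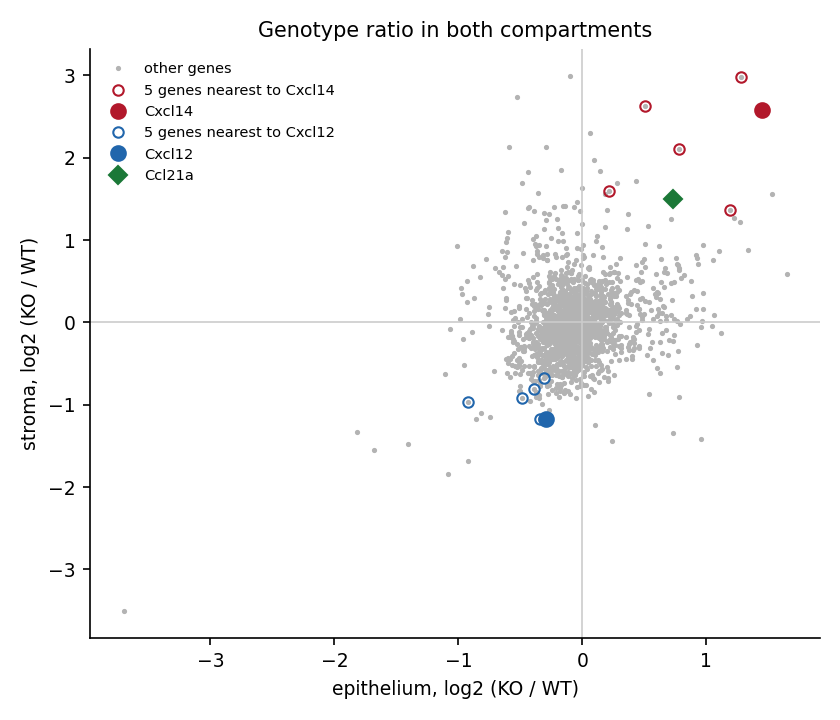
Log2 ratio of KO over WT in epithelium (horizontal axis) and stroma (vertical axis) for the 1755 genes with a value in every pool, 1 point per gene. Cxcl14 (filled red) sits at 1.45 and 2.58, Cxcl12 (filled blue) at -0.29 and -1.17. The green diamond is Ccl21a, with 0.73 in epithelium. Open circles mark the 5 genes whose levels over the pools lie nearest to each chemokine.

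Between compartments, Cxcl14 was called higher in epithelium in WT and was not called in KO, while Cxcl12 was called higher in stroma in both genotypes. In KO, Cxcl14 was 1.43-fold as high in epithelium as in stroma (1.32 to 1.56; adjusted p = 0.446 per the authors' deposited table). That table calls 9.88% of its genes. In WT the same contrast was 3.15-fold (2.43 to 4.13; adjusted p = 8.32e-05 per the authors' deposited table), where 28.8% of genes are called. Cxcl12 was 4.30-fold lower in KO epithelium than in KO stroma (3.65 to 5.08; adjusted p = 5.19e-08 per the authors' deposited table). In WT it was 7.92-fold lower in epithelium (6.79 to 9.26). Its adjusted p of 1.41e-25 was the second lowest of the authors' deposited table, a place shared with the noncoding RNA Malat1. These contrasts share their pools with the genotype contrasts above and are no separate evidence.

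The quotient of Cxcl14 over Cxcl12 UMIs within a pool is free of the size factors. A change of the quotient between pools can be read, whereas its value in 1 pool does not compare molecules of the genes. It was 8.04 in KO epithelium and 2.41 in WT epithelium, a 3.33-fold change (95% exact conditional interval 2.67 to 4.17). In stroma it was 1.30 in KO and 0.0968 in WT, a 13.5-fold change (10.2 to 18.0). Across the boundary from epithelium to stroma the quotient differed 6.16-fold in KO (5.12 to 7.44) and 24.9-fold in WT (18.3 to 34.0). The quotient thus ran highest in KO epithelium and lowest in WT stroma, and the compartments were closer to each other in KO than in WT. That was not particular to these genes. The 14 epithelial markers were 3.16-fold higher in epithelium in KO and 8.06-fold in WT. Summed stromal markers were 1.78-fold lower in epithelium in KO and 2.71-fold in WT. Macrophage and dendritic cell markers differed slightly more in KO, 1.48-fold against 1.38-fold.

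Cell type markers also differed between the pools, only in part in the direction of the chemokines. In stroma spots, the 14 epithelial markers with a value in every pool, of 25 looked for, had a summed level of 20.3 in KO and 9.32 in WT, a 2.18-fold difference (2.00 to 2.37), and the lowest count of a marker was 20 UMIs in KO and 3 in WT. None of the 7 epithelial markers listed for KO against WT stroma was called in the authors' deposited table, beside 1.51% of all genes. Cxcl14 UMIs per 100 epithelial marker UMIs numbered 27.9 in KO stroma and 10.2 in WT stroma, so the Cxcl14 difference on this scale was 2.75-fold. The same figure was 12.7 in KO epithelium, against 3.97 in WT epithelium, so stroma held more Cxcl14 per epithelial marker UMI than epithelium did in both genotypes. In epithelium spots the epithelial markers summed to 64.1 in KO and 75.1 in WT, and Cxcl14 per epithelial marker UMI was 3.19-fold higher in KO. Stromal markers went the other way in epithelium spots: 21 of 24 summed to 68.5 in KO and 51.8 in WT, and per stromal marker UMI Cxcl14 was 2.06-fold higher in KO.

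For Cxcl12, the same 21 stromal markers summed to 122 in KO stroma and 140 in WT stroma. Gene by gene, 12 of them had higher and 9 lower values in KO stroma, with a median log2 ratio of 0.08 against -0.05 for all genes, and 1 was called lower in the authors' deposited table, so their sum and their median differed in sign. Cxcl12 per stromal marker UMI in KO stroma was 0.51 times that in WT stroma. Smooth muscle markers (10 of 14 with a value in every pool) summed to 13.8 in KO stroma and 29.1 in WT stroma, a ratio of 0.47 (0.44 to 0.50), close to the 0.44 of Cxcl12. All 10 listed in the authors' deposited table for stroma had lower values in KO (median log2 ratio -1.20), and 5 were called lower, beside 0.756% of all genes of that table. With the threshold at 0.01, or without the lowest 25% of genes by level, 3 were called. Cxcl12 per 100 smooth muscle marker UMIs was 31.6 in KO stroma and 33.6 in WT stroma, a ratio of 0.94. In epithelium the KO to WT ratios of both were also below 1, but less close. The smooth muscle markers had 0.67 (0.62 to 0.72) and Cxcl12 had 0.82 (0.67 to 0.996), with overlapping intervals. Cxcl12 per smooth muscle marker UMI was 1.23-fold higher in KO epithelium, a figure without an interval. Between WT compartments these markers were 2.90-fold lower in epithelium, against 7.92-fold for Cxcl12. Blood endothelium markers, 5 of 14, summed to 6.72 in KO stroma and 8.07 in WT stroma, and Cxcl12 per endothelial marker UMI had a ratio of 0.53. The part of muscle, vessel or epithelial cells in the Cxcl12 and Cxcl14 differences was not tested. Cxcl12 in KO stroma stayed below WT when set against stromal or endothelial markers, and was nearly level with WT when set against smooth muscle markers.

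**Figure D3:**
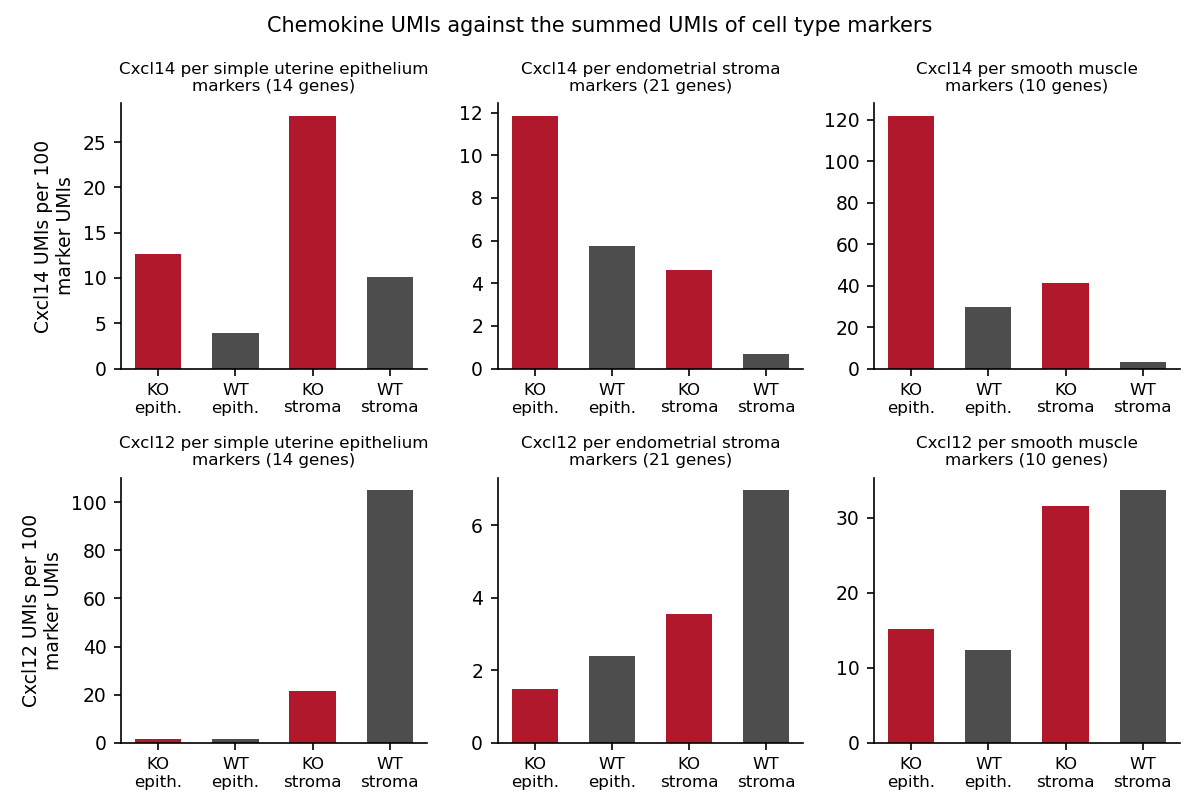
UMIs of Cxcl14 (top row) and Cxcl12 (bottom row) per 100 summed UMIs of markers of simple uterine epithelium, endometrial stroma and smooth muscle, with 1 bar per pool (red KO, grey WT) and axes from 0. Per 100 smooth muscle marker UMIs, Cxcl12 stands at 31.6 in KO stroma and 33.6 in WT stroma, whereas per 100 stromal marker UMIs it stands at 3.55 and 6.97.

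Few other chemokines reached the tables. Of 36 other ligand genes looked for, 5 were listed in any table, and of 23 receptor genes only the atypical receptor Ackr3 was. Cxcr4, the signalling receptor of CXCL12, was not among the genes analysed here. A gene enters a table more readily when it is high in 1 pool, so the listed genes are no fair sample of the family. Between genotypes none of the listed ligands and no receptor was called in the authors' deposited tables. Those tables call 0.12% of all genes in epithelium and 1.51% in stroma. In KO epithelium against KO stroma 1 of 3 listed ligands was called higher and 1 lower, beside 5.43% and 4.45% of all genes of the table.

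Among these ligands, Ccl5, which draws T cells and monocytes, had 93 UMIs in KO epithelium and 26 in WT epithelium, a ratio of 3.30 (2.12 to 5.31; adjusted p = 0.362 per the authors' deposited table). Cxcl15, a mouse chemokine known from lung epithelium that attracts neutrophils, had 131 and 52 UMIs in KO and WT epithelium, a ratio of 2.32 (1.67 to 3.27; adjusted p = 0.927 per the authors' deposited table). In KO stroma Cxcl15 had 132 UMIs. Ccl21a, a CCR7 ligand of lymphatic vessels, had 216 UMIs in stroma spots of KO and 38 in those of WT, a ratio of 2.83 (1.99 to 4.10). The authors' deposited table gives that an adjusted p of 0.878. Near-identical copies of Ccl21a exist in the mouse genome, so its reads could be split or lost in counting. It was also 4.23-fold lower in KO epithelium than in KO stroma (3.21 to 5.61; adjusted p = 0.0170 per the authors' deposited table).

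Cxcl17, a mucosal chemokine, was 4.95-fold higher in KO epithelium than in KO stroma (3.15 to 8.13; adjusted p = 2.54e-05 per the authors' deposited table). Between KO and WT epithelium Cxcl17 had a ratio of 1.19 (0.92 to 1.52). Cx3cl1, a chemokine that can stay tethered to the cell membrane, had 98 UMIs in KO epithelium and 87 in WT epithelium, a ratio of 1.04 (0.77 to 1.40). Ackr3, which takes up CXCL12, had 87 UMIs in KO epithelium and 43 in WT epithelium, a ratio of 1.87 (1.28 to 2.76; adjusted p = 0.974 per the authors' deposited table).

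**Figure D4:**
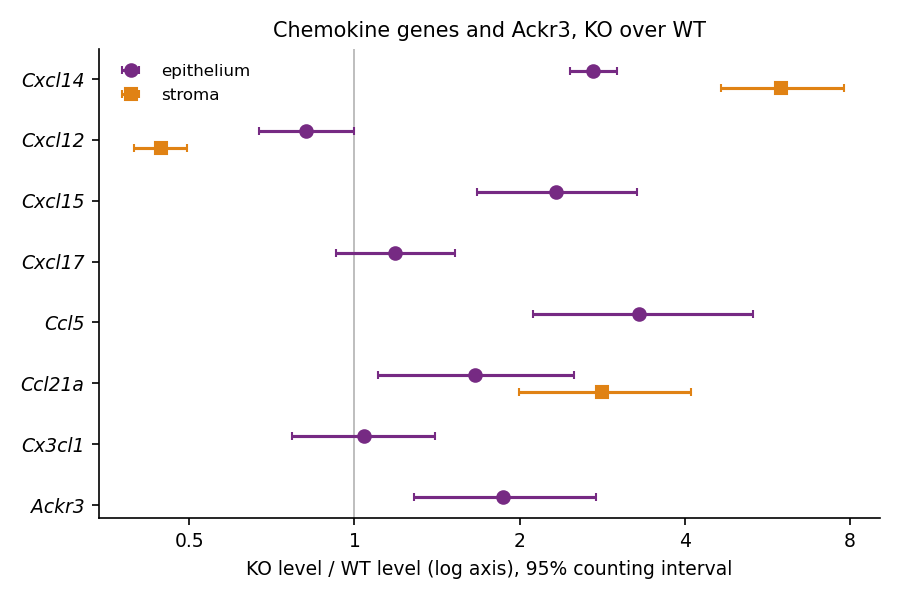
KO level over WT level on a log axis for the chemokine genes listed in any table and the receptor gene Ackr3, in epithelium (purple circles) and stroma (orange squares), with 95% exact counting intervals of the UMI split. A gene has a stroma point only where both stroma pools have a value. Cxcl12 is the gene with the points below 1, at 0.82 in epithelium and 0.44 in stroma.

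Genes that pass on or modify chemokine signals had a median genotype ratio near that of all genes. Of 18 genes for G protein subunits, arrestins, kinases, proteases and partners, 13 were listed in epithelium and 7 in stroma. None of them was called between KO and WT in the authors' deposited tables, beside 0.12% and 1.51% of all genes. Their median log2 KO to WT ratio was -0.15 in epithelium and -0.07 in stroma, near the -0.10 and -0.05 of all genes. Gnai2, the inhibitory G protein subunit that chemokine receptors use, had a ratio of 0.86 (0.75 to 0.98) in epithelium and 0.88 (0.73 to 1.06) in stroma. Dpp4, a protease that trims and inactivates CXCL12, had 100 UMIs in KO epithelium and 75 in WT epithelium, a ratio of 1.23 (0.90 to 1.68).

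Between compartments in WT, 2 of 9 listed genes of this group were called, beside 28.8% of all genes. In KO none of 11 listed genes of the group was called, beside 9.88% of all genes. Mmp2, a matrix protease that can also cleave CXCL12, was lower in WT epithelium than in WT stroma, with a ratio of 0.57 (0.48 to 0.68; adjusted p = 0.0173 per the authors' deposited table). Hif1a, the hypoxia factor that can induce Cxcl12, was 1.80-fold higher in WT epithelium (1.36 to 2.41; adjusted p = 0.0413 per the authors' deposited table). In KO the ratio of epithelium to stroma was 0.78 (0.69 to 0.88) for Mmp2 and 1.53 (1.22 to 1.95) for Hif1a. Between genotypes, Mmp2 had KO to WT ratios of 1.52 (1.33 to 1.75) in epithelium and 1.11 (0.95 to 1.31) in stroma. Those of Hif1a were 0.74 (0.62 to 0.89) and 0.87 (0.63 to 1.21).

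Of 12 heparan sulfate proteoglycan genes, whose products hold chemokines at the cell surface, 8 were listed in epithelium and 5 in stroma. None of them was called between genotypes in the authors' deposited tables, which call 0.12% (epithelium) and 1.51% (stroma) of all genes. The median log2 KO to WT ratio was 0.22 over the 8 and 0.42 over the 5, against -0.10 and -0.05 for all genes. Sdc4, which encodes syndecan-4, was an epithelial gene, 2.79-fold higher in epithelium than in stroma in KO (2.40 to 3.26) and 5.10-fold in WT (3.86 to 6.86). The authors' deposited tables give it adjusted p-values of 6.63e-05 in KO and 6.29e-10 in WT. Its KO to WT ratio in stroma was 1.98 (1.46 to 2.72; adjusted p = 0.503 per the authors' deposited table). Gpc1, which encodes glypican-1, had KO to WT ratios of 1.58 (1.30 to 1.94) in epithelium and 1.34 (1.02 to 1.78) in stroma.

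Few markers of the cells that these chemokines attract were in the tables. None of 15 markers of natural killer and T cells was listed in any table, so their level cannot be given. Of 18 markers of macrophages and dendritic cells 9 were listed, and the 5 with a value in every pool summed to 6.97 in KO epithelium and 6.79 in WT epithelium. Over the 8 listed for KO against WT epithelium, 5 had higher and 3 lower values in KO, and the median log2 ratio was 0.55 against -0.10 for all genes. In stroma they summed to 10.3 in KO and 9.34 in WT, a ratio of 1.10 (1.01 to 1.21). The 4 listed for KO against WT stroma had a median log2 ratio of 0.28, against -0.05 for all genes. None of the listed markers was called between genotypes in the authors' deposited tables, which call 0.12% (epithelium) and 1.51% (stroma) of all genes.

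The genes whose levels ran most like each chemokine were sought among the 1733 other named genes with a value in every pool, by the distance between log2 levels over the 4 pools after each gene's own mean was taken off. Nearest to Cxcl14 were C3, Bpifb5, Clca1, Ccnd1 and Cbr2, at distances between 0.90 and 1.16. C3, the central complement component, had 504 (KO) and 204 (WT) UMIs in epithelium and 160 (KO) and 31 (WT) UMIs in stroma. Clca1, a secreted regulator of chloride channels, had 809 (KO) and 307 (WT) UMIs in epithelium and 270 (KO) and 17 (WT) UMIs in stroma. WT stroma was the lowest pool for each of the 5 genes, as for Cxcl14, a likeness that the choice by distance favours. Bpifb5, of a family of lipid-binding secreted proteins, was the gene of the 5 that stood higher in KO stroma than in KO epithelium, with 212 and 186 UMIs from a stroma pool of lower depth. Ccnd1 encodes cyclin D1 and Cbr2 a carbonyl reductase.

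Neighbours of Cxcl12 in this measure were much nearer. Gpx3, which encodes a secreted glutathione peroxidase, lay at 0.12, with 54 (KO) and 63 (WT) UMIs in epithelium and 186 (KO) and 209 (WT) UMIs in stroma. Its KO to WT ratio was 0.79 (0.54 to 1.16) in epithelium and 0.44 (0.36 to 0.54) in stroma, beside 0.82 and 0.44 for Cxcl12. The other 4 were the nuclear noncoding RNA Malat1 at 0.25, the secreted matrix-associated protein gene Smoc2 at 0.47, the water channel gene Aqp1 at 0.63 and the small noncoding RNA Bc1 at 0.69. With 4 pools a likeness describes these pools only, and the genes were chosen for it. A correlation in place of the distance, which ignores the size of the changes, shared 0 of its 5 nearest genes with the list for Cxcl14 and 1 with that for Cxcl12.

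**Figure D5:**
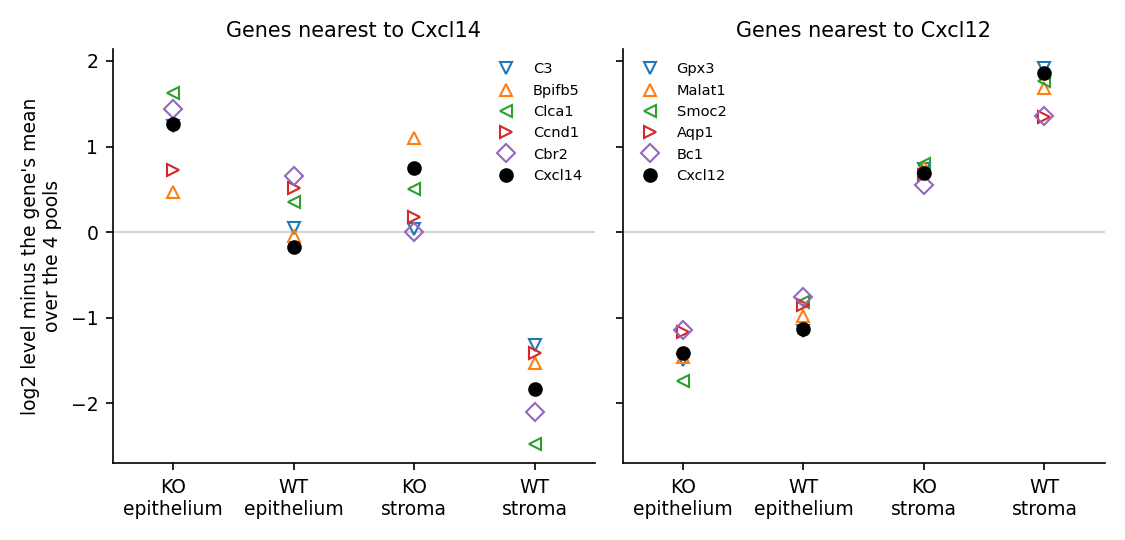
Log2 level minus the gene's own mean over the 4 pools, for Cxcl14 with its 5 nearest genes (left) and Cxcl12 with its 5 nearest genes (right), 1 marker per gene and pool. Black circles are the chemokines, at 1.27, -0.18, 0.75 and -1.83 for Cxcl14 and -1.42, -1.13, 0.69 and 1.86 for Cxcl12, in the order of the axis.

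The listed genes nearest to the chemokines in the genome were also compared between KO and WT. H2afy, which encodes the histone variant macroH2A and lies 152 kb from Cxcl14, had a KO to WT ratio of 0.87 (0.71 to 1.07) in epithelium and 1.38 (0.99 to 1.95) in stroma. Slc25a48, a mitochondrial carrier gene 142 kb away on the other side, had 351 UMIs in KO epithelium and 555 in WT epithelium, a ratio of 0.58 (0.51 to 0.67) on the other side of 1 from the 2.72 of Cxcl14. Its stroma ratio was 1.71 (1.06 to 2.85), from 79 UMIs in KO and 23 in WT, and the authors' deposited table gives an adjusted p of 1 for the epithelium. Neither H2afy nor Slc25a48 was listed for KO against WT stroma. Their stroma ratios come from UMI sums of the other comparisons and have no adjusted p. Slc25a48 was itself epithelial, 3.24-fold higher in epithelium than in stroma in KO (2.54 to 4.20) and 9.49-fold in WT (6.26 to 15.1), with adjusted p-values of 0.000101 in KO and 1.81e-09 in WT in the authors' deposited tables. The nearest listed genes to Cxcl12 were farther off, Zfp422 at 540 kb and Hnrnpf at 719 kb, with epithelial KO to WT ratios of 0.87 each, inside the counting interval of Cxcl12 in epithelium. Hnrnpf, a splicing factor gene, had a stroma ratio of 0.94 (0.77 to 1.14), against 0.44 for Cxcl12.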

How the data were processed

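Sections of 10 µm from 4 KO and 4 WT uteri were profiled on Visium slides, per the labels' protocols, and GRCm38 is the build in the submitters' processing notes. How reads were aligned, spots named and genes tested is not given in the sources used here. Per the file headers, each of 4 deposited tables holds an average UMI signal per pool, a log2 fold change and an adjusted p-value (FDR); the authors pooled the animals of a genotype. UMI sums were solved by least squares from the deposited averages and log2 folds, and 100% lay within 0.01 of a whole number. A gene was called where the authors' adjusted p-value was under 0.05; no p-value was computed here. Fold intervals are exact Clopper-Pearson, quotient intervals exact conditional, level intervals exact Poisson, all at 95%, and cover counting error only. The steps were tested on simulated tables.

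The members and lists were chosen with earlier results of these data known. The text names the members, every listed chemokine and receptor gene, called genes of the signalling and proteoglycan lists, the 5 genes nearest in pattern and the nearest listed genes in the genome; Gnai2, Dpp4 and Gpc1 were added after their values were seen. Positions are from GENCODE M21, in which 5826 of 5828 IDs were found, and promoters from RefSeq. Alternatives were a threshold of 0.01, a minimum log2 fold of 1, dropping the 25% of genes with the lowest levels, centring on the median gene, the deposited log2 fold, and scaling by shared genes. Python 3.11.15, NumPy 2.4.6, SciPy 1.17.1, pandas 2.3.3 and matplotlib 3.10.9 were used.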

Additional observations from a re-analysis of the deposited data

How the results depend on the processing

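At a threshold of 0.01 on the authors' adjusted p-value, Cxcl14 in epithelium (log2 KO to WT ratio 1.45, adjusted p = 0.0102) and Cxcl12 in stroma (-1.17, adjusted p = 0.0125) lost their calls, and the tables called 2 genes (KO against WT epithelium), 10 genes (KO against WT stroma) and 175 genes (KO epithelium against KO stroma). With the lowest 25% of genes by level dropped, 9 genes were called for KO against WT stroma and 327 for WT epithelium against WT stroma. The other counts over all genes stayed within 1.5 times. Among calls in gene lists, the 2 signalling genes called between WT epithelium and WT stroma (Mmp2 and Hif1a) fell to 0 at a threshold of 0.01 and at a minimum log2 fold of 1. The 2 chemokine ligands called between KO epithelium and KO stroma fell to 1 at 0.01, where Ccl21a lost its call, and to 1 without the lowest 25% of genes. The 5 smooth muscle markers called in KO against WT stroma fell to 3 at 0.01 and to 3 without the lowest 25%, and the 1 stromal marker called there to 0 at 0.01. Centring, the deposited log2 folds and scaling by shared genes kept each of the 8 member folds inside its counting interval, and no direction was turned. No paired analysis was possible because no table keeps animals apart, and for that reason no animal could be left out in turn. Depth limits Cxcl14 in WT stroma most, at 66 UMIs.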
